A study of Mus musculus with 15 samples.

Results

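The 43 genes described here encode the DNA repair machinery of the mouse, taken by symbol from a fixed list of 43 names out of 24490 genes in the count tables; all 43 were found, and all 43 passed the filter on low counts that left 14907 genes for testing. They fall into 13 genes of homologous recombination, 10 Fanconi anaemia genes, 3 mismatch repair genes, 5 genes of base excision and single-strand break repair, 4 end joining genes and 8 genes of break signalling and resection. The comparison asked for sets the 23 recombination and Fanconi genes against the 12 mismatch, base excision and end joining genes, and the 8 signalling and resection genes stand apart.

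The cells were primary granulosa cells, the somatic partners of the oocyte in the follicle, from the ovaries of 8-week-old RjOrl:SWISS female mice. They were transfected in culture with 30 pmol of siRNA and Lipofectamine RNAiMax, so all groups share the transfection. Non-targeting (scrambled) siRNA and Foxl2 siRNA were each followed at both times, 30 h and 54 h, whereas Esr2 siRNA was followed at 30 h alone, with 3 libraries in each of the 5 groups. Foxl2 encodes a forkhead transcription factor of granulosa cells and Esr2 encodes oestrogen receptor beta. Each targeting reagent was a pool of 3 siRNAs, with 4 pools named per target in the labels; which pool went into which library is not given in the sources used here, and the labels print the same catalogue numbers for both targets. Nothing in the labels tells if a group's 3 libraries are 3 cultures or mice; its p-values thus rest on the spread among libraries alone, and that spread may be technical.

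Polyadenylated RNA was sequenced as single 75-base stranded reads, and a library held between 44976872 and 59550065 gene counts. Levels are CPM, counts scaled to a common library size by TMM, given for replicates 1, 2 and 3 in that order. The targeted gene was checked first. Foxl2 stood at 174, 152 and 143 CPM with scrambled siRNA at 30 h, at 33.8, 28.4 and 65.4 with Foxl2 siRNA, at 189, 154 and 166 with scrambled siRNA at 54 h and at 33.7, 57.5 and 25.2 with Foxl2 siRNA. Esr2 stood at 60.6, 60.4 and 61.6 CPM with scrambled siRNA and at 12.9, 14.5 and 13.9 with Esr2 siRNA at 30 h. It was also lower with Foxl2 siRNA at 54 h (18, 49.3 and 15.7 against 74.2, 64.9 and 67.3 CPM). At 30 h each target also read lower in all libraries given the other siRNA than in all scrambled ones. Foxl2 siRNA left 29.2, 25 and 45.5 CPM of Esr2, and Esr2 siRNA left 112, 128 and 114 CPM of Foxl2. Neither difference was called (edgeR adjusted p = 0.109 for Esr2 and 0.539 for Foxl2). Among the Foxl2 siRNA libraries, residual Foxl2 mRNA was highest in replicate 3 at 30 h and in replicate 2 at 54 h. Values without these libraries are given beside some of the results. All 12 granulosa markers had reads in every library, down to 2 counts, with a summed level between 5080 and 7910 CPM. With Foxl2 siRNA at 54 h 6 of them, Foxl2 and Esr2 included, were lower and 2 higher. Of 11 leukocyte markers 1, Tyrobp, had 0 counts in all 15 libraries, and 4 passed the filter on low counts. Of 10 oocyte markers 1, Figla, had 0 counts in all 15 libraries, and 2 passed the filter. From scrambled to Foxl2 siRNA at 54 h the summed level of the surface epithelium markers went from 412 to 485 CPM to 1020 to 1100 CPM (7 of 9 higher), that of leukocyte markers from 3.19 to 3.48 to 4.99 to 6.34 (2 of 4 tested higher), that of theca and stroma markers from 330 to 1040 to 411 to 1340 (1 of 8 lower), that of endothelial markers from 2.91 to 5.67 to 4.75 to 8.75 (0 of 5 called), and that of oocyte markers from 2.55 to 3.24 to 1.36 to 1.93 (1 of 2 lower); their part in the repair gene results was not tested.

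Homologous recombination repairs a double-strand break by copying the sister chromatid: the broken ends are resected, BRCA1, PALB2 and BRCA2 prepare the resected end for invasion of the sister duplex, and RAD54 and BLM act on the joined molecules. The Fanconi anaemia pathway opens and repairs crosslinks between the DNA strands, with a core complex that attaches ubiquitin to the FANCI-FANCD2 pair, and hands the break to recombination. Both depend on a replicated sister chromatid and are used mostly in S and G2 phase, whereas end joining ligates breaks in any phase, mismatch repair corrects replication errors and base excision repair removes single damaged bases. Granulosa cells divide as follicles grow, and repair genes of the recombination pathway are known for their part in the size and lifetime of the ovarian reserve.

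In control cells the members covered a wide range of levels per length (CPM per kilobase of annotated exon, scrambled siRNA at 30 h). Parp1, the enzyme that marks single-strand breaks with poly(ADP-ribose), was highest at 63.7, followed by Msh6, a mismatch recognition protein, at 23.7 and by the Ku70 gene Xrcc6 at 13.0. Xrcc1 at 12.0, the scaffold of single-strand break repair, and its partner ligase Lig3 at 11.9 came next. At the low end stood the recombination genes Xrcc3 at 1.51 and Rad51c at 1.35 and the Fanconi core gene Fancc at 1.03. The 5 highest genes belonged to base excision, mismatch repair and end joining, and the highest recombination gene was Brca1, at 8.17 and rank 10. Every member had at least 126 counts in every library. Lig3 shares 27.9% of its annotated exon bases with a gene on the opposite strand, and since the strand setting of the counting is not given in the sources used here, its level is uncertain.

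**Figure D1:**
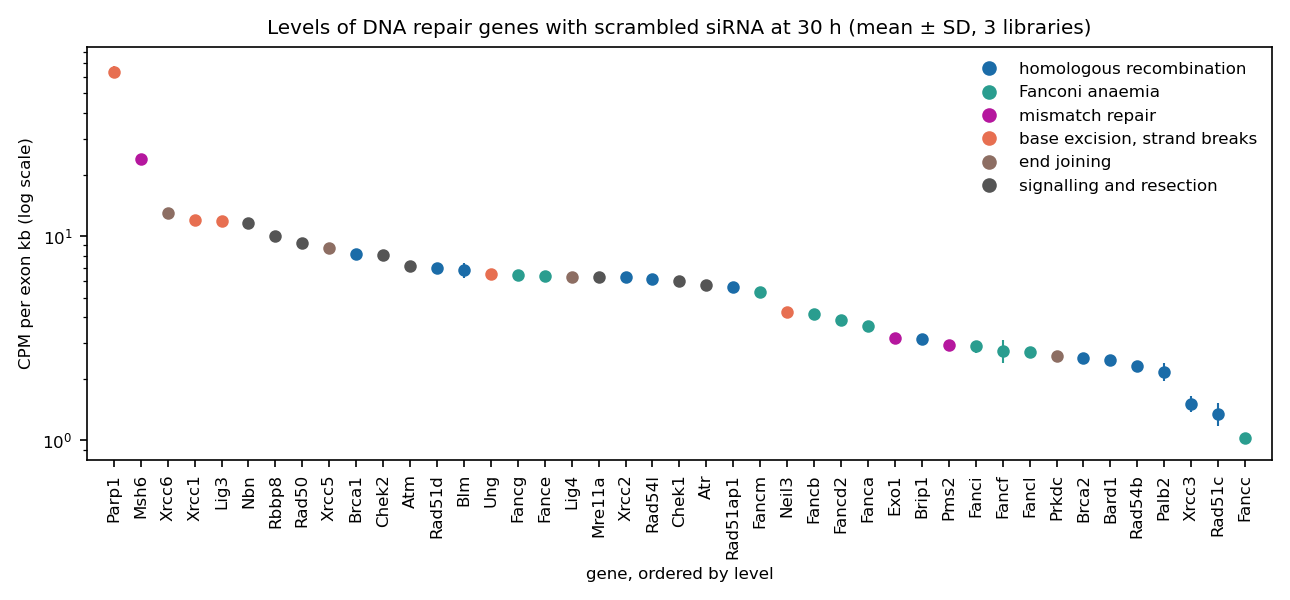
Levels of the 43 DNA repair genes in control cells: each point is the mean CPM per kilobase of exon over the 3 libraries with scrambled siRNA at 30 h (log axis), bars are the SD, and genes run from left to right by level. Parp1 stands apart at 63.7, Msh6 follows at 23.7, and all recombination and Fanconi genes lie from 1.03 (Fancc) to 8.17 (Brca1).

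Foxl2 siRNA at 54 h lowered 26 of the 43 repair genes and raised none, against 20.3% of all genes tested that were lower (38.8% called in either direction). The median log2 change of the members was -0.35, and of all genes tested -0.01. Homologous recombination had 10 of 13 genes lower, base excision and single-strand break repair 4 of 5, mismatch repair 2 of 3, signalling and resection 5 of 8, Fanconi anaemia 4 of 10 and end joining 1 of 4. For 29 of the 43 genes all 3 Foxl2 siRNA libraries lay below all 3 scrambled ones, against 27.9% of all genes tested, and for 0 they all lay above (23.5% of all genes). Without Foxl2 siRNA replicate 2 the count of lowered members was 28, with 3257 genes higher and 3495 lower among all genes. In bulk RNA, fewer cells of a type and less RNA per cell cannot be told apart.

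**Figure D2:**
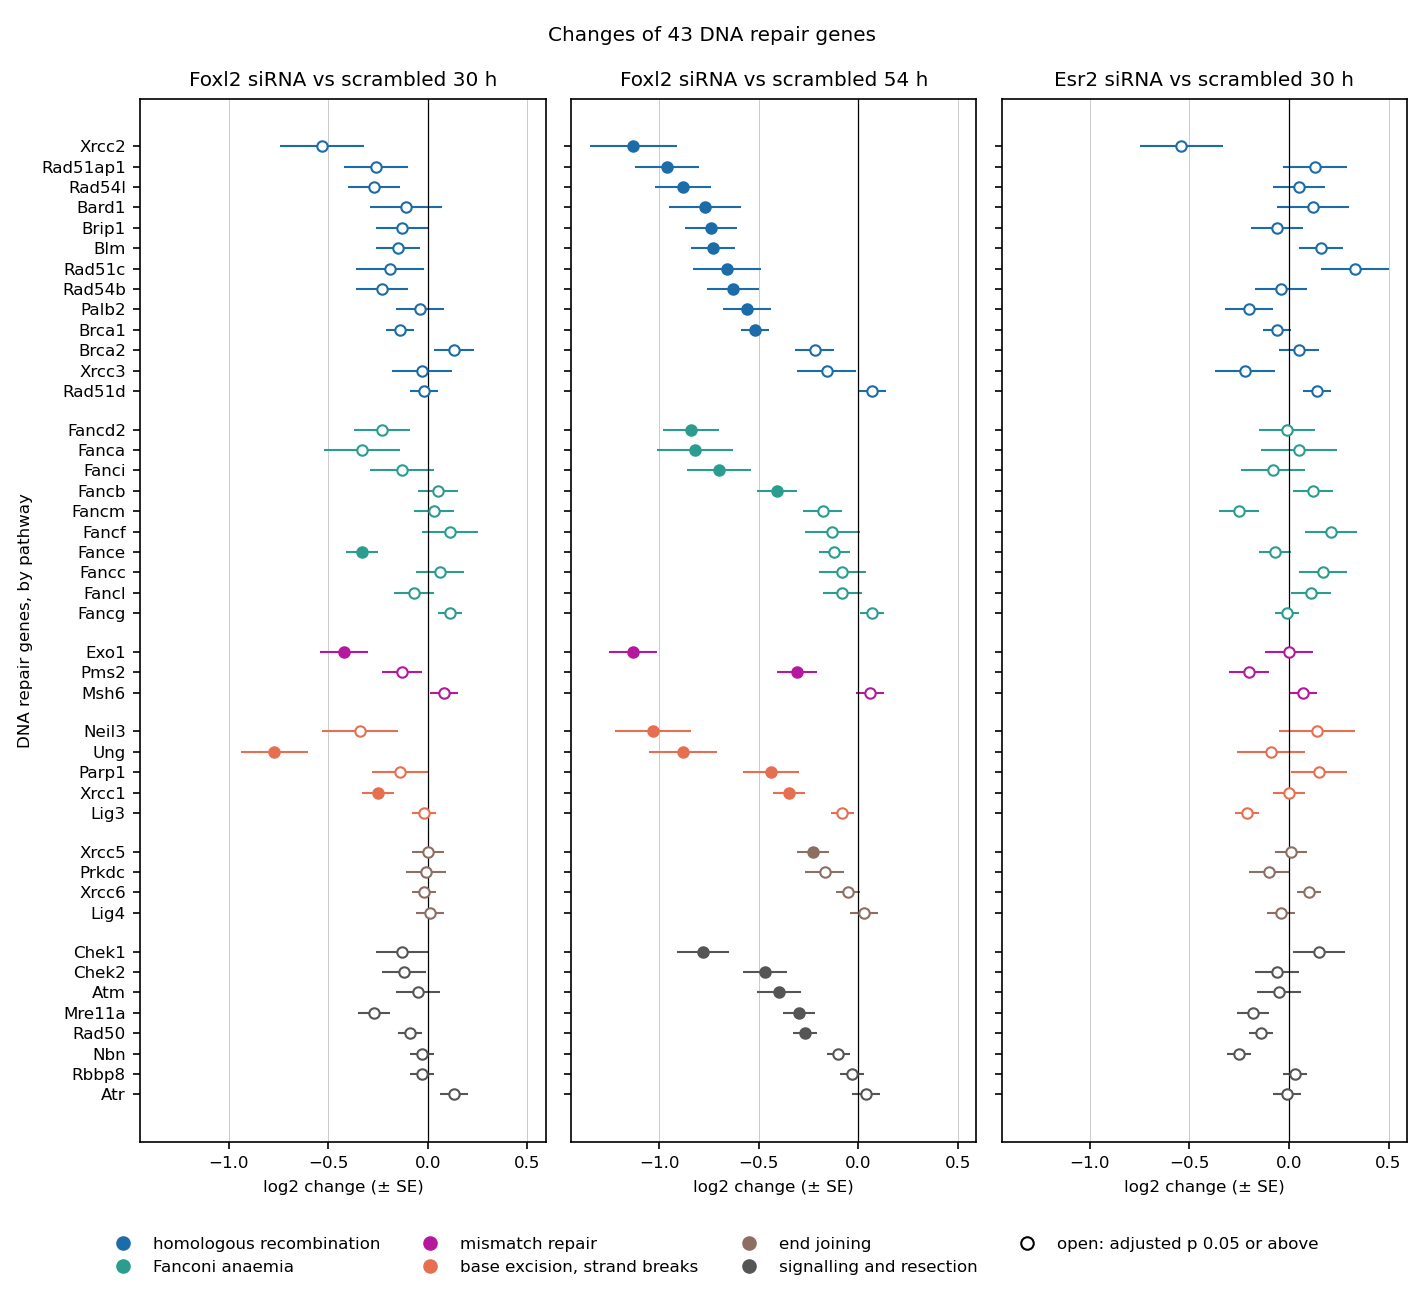
Log2 change (± SE) of each DNA repair gene after Foxl2 siRNA for 30 h, Foxl2 siRNA for 54 h and Esr2 siRNA for 30 h, each against scrambled siRNA of the same time, grouped by pathway; filled points have an edgeR adjusted p under 0.05. The filled points number 4 at 30 h and 26 at 54 h with Foxl2 siRNA and 0 with Esr2 siRNA, and all of them lie below 0.

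Homologous recombination genes showed the largest median change of the 6 groups, -0.66. Brca1 (chr11:101488764-101551955, minus strand; all coordinates are of the mm10 assembly) encodes the ubiquitin ligase that directs broken ends into recombination. It stood at 57.6, 52.2 and 53.2 CPM with scrambled siRNA and at 35.5, 42.7 and 35.6 CPM with Foxl2 siRNA at 54 h (log2 change -0.52 ± 0.07 SE, edgeR adjusted p = 8.91e-05). All 3 Foxl2 siRNA libraries lay below the scrambled ones, and replicate 2 was the highest of them. Rad54l (chr4:116094264-116123690, minus strand), the motor protein that helps the broken end invade the sister duplex, went from 18.7, 18.1 and 18.7 to 8.01, 13 and 9.19 CPM (log2 change -0.88 ± 0.14 SE, edgeR adjusted p = 0.00031). Blm (chr7:80454733-80535119, minus strand), the helicase that dissolves joined molecules, went from 34.8, 32.4 and 34 to 16.8, 24.7 and 19.7 CPM (log2 change -0.73 ± 0.11 SE, edgeR adjusted p = 0.000337). For both genes the groups did not overlap and replicate 2 was again the highest of the Foxl2 siRNA libraries.

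The largest log2 change of the recombination genes was that of Xrcc2 at -1.13 ± 0.22 (SE; edgeR adjusted p = 0.00138), from 25.3, 23.5 and 24.1 to 8.31, 16 and 9 CPM. Rad51ap1, which stimulates strand invasion, changed by -0.96 ± 0.16 (SE; edgeR adjusted p = 0.000503). The BRCA1 partners fell with it: Bard1, the other subunit of its ubiquitin ligase, changed by -0.77 ± 0.18 (SE; edgeR adjusted p = 0.00431), the helicase gene Brip1 by -0.74 ± 0.13 (SE; edgeR adjusted p = 0.000898), and Palb2, the bridge between BRCA1 and BRCA2, by -0.56 ± 0.12 (SE; edgeR adjusted p = 0.00239). Rad51c changed by -0.66 ± 0.17 (SE; edgeR adjusted p = 0.00889) and Rad54b by -0.63 ± 0.13 (SE; edgeR adjusted p = 0.00192), although 39.2% of the exon bases of Rad54b are shared with another gene on the same strand, so that its reads may be divided. The other 3 recombination genes did not pass the test. Brca2, which acts on the resected single strand, stood at 26, 25.2 and 25.3 CPM with scrambled siRNA and at 19.2, 24.9 and 21.4 CPM with Foxl2 siRNA (log2 change -0.22 ± 0.10 SE, edgeR adjusted p = 0.0865, 95% interval -0.43 to -0.01). Its groups did not overlap by a narrow margin, and without Foxl2 siRNA replicate 2 it passed the test at a log2 change of -0.32 (edgeR adjusted p = 0.0115). Rad51d gave 0.07 ± 0.07 and Xrcc3 -0.16 ± 0.15 (SE). RAD51C, RAD51D and XRCC2 act in 1 complex, so the members of that complex gave different calls; the difference between the genes was not tested.

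In the Fanconi anaemia group the 4 genes that fell were Fancd2, Fanci, Fanca and Fancb. Fancd2 (chr6:113531682-113597017, plus strand) and Fanci (chr7:79391929-79450264, plus strand) encode the pair that the core complex marks with ubiquitin. Fancd2 stood at 22.5, 20.4 and 20.7 CPM with scrambled siRNA and at 9.46, 15.3 and 10.6 CPM with Foxl2 siRNA (log2 change -0.84 ± 0.14 SE, edgeR adjusted p = 0.000534). Fanci went from 12.6, 14.1 and 14.6 to 6.91, 10.9 and 7.51 CPM (log2 change -0.70 ± 0.16 SE, edgeR adjusted p = 0.00368). Neither gene had overlapping groups; Fanci shares 13.4% of its exon bases with a gene on the opposite strand. Fanca (chr8:123268300-123318576, minus strand), a large subunit of the core complex, went from 21.3, 22 and 21.9 to 8.97, 18 and 9.92 CPM (log2 change -0.82 ± 0.19 SE, edgeR adjusted p = 0.00442). Replicate 2 lay far above the other two Foxl2 siRNA libraries and still below all scrambled ones; 8.62% of the exon bases of Fanca overlap an opposite-strand gene. Fancb, an X-linked core subunit, changed by -0.41 ± 0.10 (SE; edgeR adjusted p = 0.00703).

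The other 6 Fanconi genes did not pass the test. They were the core complex genes Fancc, Fance, Fancf and Fancg, the ubiquitin ligase gene Fancl and the DNA translocase gene Fancm. Their log2 changes lay between -0.18 (Fancm) and 0.07 (Fancg), each with an SE of at most 0.14. The median over all 10 Fanconi genes was -0.15. Fancg was the most tightly bounded of the 6, with a 95% interval of -0.07 to 0.21.

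Mismatch repair was split between its members. Exo1 (chr1:175880581-175913489, plus strand), the exonuclease that removes the mismatched strand and also resects double-strand breaks, had the smallest p of all 43 genes. Its level dropped from 24.9, 23.5 and 23.1 to 9.02, 12.8 and 10.8 CPM (log2 change -1.13 ± 0.12 SE, edgeR adjusted p = 2.41e-05), a 2.19-fold lower level. Pms2 (chr5:143909964-143933968, plus strand), a subunit of the MutL-alpha nuclease, went from 15.7, 15 and 15.9 to 10.9, 13.4 and 13.3 CPM (log2 change -0.31 ± 0.10 SE, edgeR adjusted p = 0.0256). The groups did not overlap for either gene, but leaving out scrambled replicate 1, scrambled replicate 3 or Foxl2 siRNA replicate 1 ended the Pms2 call. Msh6, at 100 ± 1.75 CPM (SD, n = 3) with scrambled siRNA and 105 ± 8.1 CPM with Foxl2 siRNA at 54 h, did not pass the test, and the 95% interval of its log2 change was -0.08 to 0.20.

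Base excision and single-strand break repair had the largest share of lowered genes, 4 of 5. Neil3 (chr8:53586867-53639065, minus strand), a glycosylase that removes oxidised bases and unhooks crosslinks at replication forks, stood at 10.4, 10.3 and 9.98 CPM with scrambled siRNA and at 3.5, 6.82 and 4.66 CPM with Foxl2 siRNA (log2 change -1.03 ± 0.19 SE, edgeR adjusted p = 0.00107). Ung (chr5:114130386-114139323, plus strand), the glycosylase that removes uracil from DNA, went from 18.1, 16.1 and 16.5 to 9.63, 11.1 and 6.92 CPM (log2 change -0.88 ± 0.17 SE, edgeR adjusted p = 0.00138). Xrcc1 (chr7:24546289-24573440, plus strand) went from 30.1, 29.1 and 29.9 to 21.7, 26.2 and 22 CPM (log2 change -0.35 ± 0.08 SE, edgeR adjusted p = 0.00287). In each of the 3 genes all Foxl2 siRNA libraries lay below all scrambled ones. Parp1 (chr1:180568924-180601254, plus strand), the member with the highest level, was spread more widely, at 328, 253 and 277 CPM in scrambled and 192, 262 and 178 CPM in Foxl2 siRNA libraries (log2 change -0.44 ± 0.14 SE, edgeR adjusted p = 0.0266). Replicate 2 with Foxl2 siRNA lay above the lowest scrambled library, so its groups overlapped, and leaving out replicate 1 or 3 of either group ended the call. Lig3 stood at 78.4, 76.1 and 78.9 and 75.8, 75.6 and 69.6 CPM (log2 change -0.08, 95% interval -0.20 to 0.04) and did not pass, although all 3 Foxl2 siRNA libraries lay below.

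End joining had the smallest median of the 6 groups, -0.11 on the log2 scale. Xrcc5 (chr1:72307421-72394952, plus strand), the gene of the Ku80 subunit of the end-binding Ku ring, went from 23.8, 21.1 and 22.8 to 18, 19.7 and 20 CPM (log2 change -0.23 ± 0.08 SE, edgeR adjusted p = 0.0335), and this call ended under the same omissions as that of Pms2. Its partner Xrcc6 stood at 42.8, 39 and 39.2 and 38.8, 37 and 40.9 CPM, with overlapping groups and a 95% interval of -0.19 to 0.08. Prkdc (chr16:15637866-15842235, plus strand), the DNA-dependent protein kinase recruited by Ku, stood at 37.4, 33.8 and 36 and 32.8, 30 and 32.4 CPM (log2 change -0.17 ± 0.10 SE, edgeR adjusted p = 0.186), below in all 3 libraries but not past the test. Lig4, the ligase of the pathway, gave 0.03 ± 0.07 (SE).

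Of the signalling and resection genes, Chek1 fell most. Chek1 (chr9:36708482-36727065, minus strand), the checkpoint kinase activated by ATR at stalled forks, went from 23.9, 23 and 22.6 to 11.4, 16.6 and 12.3 CPM (log2 change -0.78 ± 0.13 SE, edgeR adjusted p = 0.000539). Chek2 (chr5:110839979-110874145, plus strand), the kinase activated by ATM, went from 19.9, 17.7 and 17.6 to 13.5, 14.8 and 11.7 CPM (log2 change -0.47 ± 0.11 SE, edgeR adjusted p = 0.00497). Rad50 (chr11:53649519-53707319, minus strand), of the MRE11 complex that senses broken ends, went from 48.1, 44.4 and 47.7 to 37.2, 39.7 and 39.6 CPM (log2 change -0.27 ± 0.06 SE, edgeR adjusted p = 0.00353). None of the 3 genes had overlapping groups. Mre11a, the nuclease of that complex, changed by -0.30 ± 0.08 (SE; edgeR adjusted p = 0.0107), while Nbn, its signalling subunit, gave -0.10 ± 0.06 (SE; edgeR adjusted p = 0.223). Atm, the kinase of the break response, changed by -0.40 ± 0.11 (SE; edgeR adjusted p = 0.0111), while the related kinase gene Atr gave 0.04 ± 0.07 and the resection factor gene Rbbp8 -0.03 ± 0.06 (SE).

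**Figure D3:**
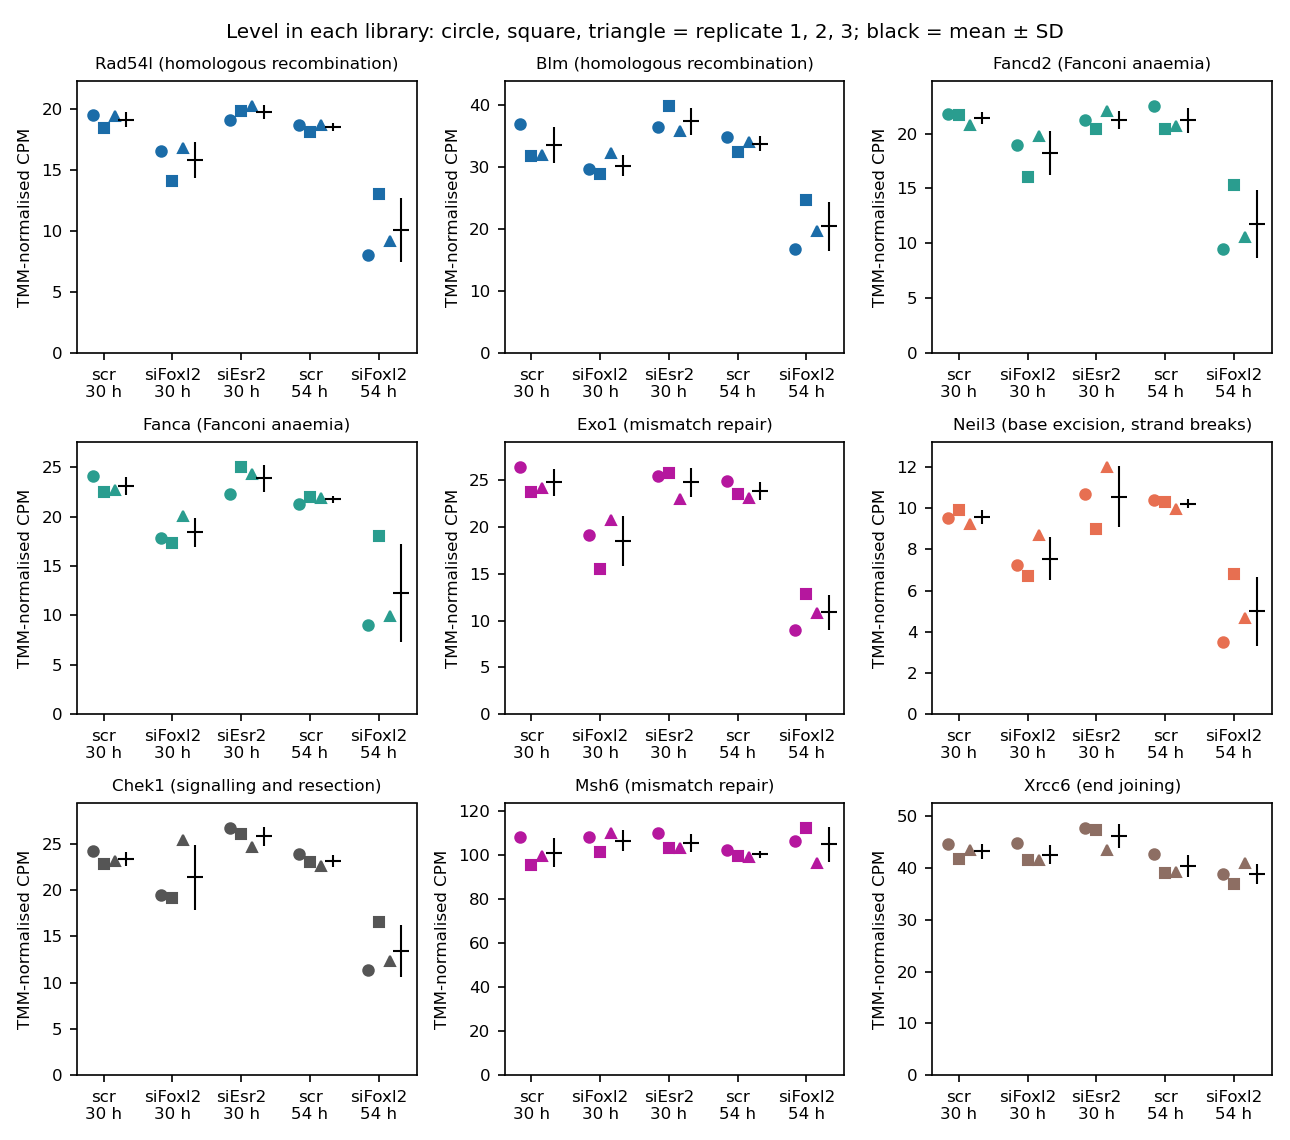
TMM-normalised CPM of 9 repair genes in all 15 libraries, with circle, square and triangle for replicates 1, 2 and 3 of each group and black marks for the mean ± SD; every axis starts at 0. Rad54l, Blm, Fancd2, Fanca, Exo1, Neil3 and Chek1 are lowest with Foxl2 siRNA at 54 h, where the square of replicate 2 lies highest, and Msh6 and Xrcc6 stay near their control level.

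Set against each other, the pathways differed in the median of their changes more than in the share of genes called. Of the 23 recombination and Fanconi genes 14 (60.9%) were lower at 54 h, and of the 12 mismatch, base excision and end joining genes 7 (58.3%). The median log2 change was -0.56 in the former and -0.27 in the latter, a difference of -0.29. The parts of each class were not alike: the median was -0.66 in homologous recombination and -0.15 in the Fanconi anaemia group, and -0.44 in base excision, -0.31 in mismatch repair and -0.11 in end joining, so the Fanconi median was closer to 0 than those of base excision and mismatch repair. Leaving out each of the 6 libraries in turn gave differences between -0.34 and -0.26. Without Foxl2 siRNA replicate 2 the medians of the 2 classes were -0.64 and -0.30, with 16 of 23 and 7 of 12 genes lower. With all libraries, counting Rbbp8, Mre11a, Rad50 and Nbn with homologous recombination reduced the difference to -0.14. Counting Exo1 with homologous recombination instead made the difference larger. Within libraries the difference between the group medians, each gene taken relative to its mean in scrambled cells at 30 h, was -0.44, -0.13 and -0.38 with Foxl2 siRNA at 54 h and between -0.13 and 0.10 in the other 12 libraries. With each gene relative to its mean over all 15 libraries it was -0.37, -0.01 and -0.33, and between -0.05 and 0.11 in the others. In both forms Foxl2 siRNA replicate 2 at 54 h lay within the range of the other groups or at its edge. No test of this difference between lists was made, since the genes were chosen with results known. The largest changes were in both classes: Xrcc2 (-1.13) and Rad51ap1 (-0.96) on one side, Exo1 (-1.13), Neil3 (-1.03) and Ung (-0.88) on the other.

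The fall in repair genes went together with lower proliferation genes. Of 30 genes of DNA replication and S phase 26 were lower at 54 h (median log2 change -0.67), and of 28 genes of mitosis 27 (median -0.83). Of all genes tested 20.3% were lower. Mcm10, a replication initiation factor, changed by -1.16 ± 0.12 (edgeR adjusted p = 1.66e-05) and the mitotic kinase gene Bub1 by -0.97 ± 0.14 (edgeR adjusted p = 0.000217). The summed level of the S phase list lay between 1840 and 1920 CPM with scrambled siRNA and between 1240 and 1600 with Foxl2 siRNA, and that of the mitosis list between 2700 and 2830 and between 1260 and 2150. At 30 h 2 of 30 and 0 of 28 were lower, against 6.65% of all genes tested. The medians at 30 h were -0.23 for S phase (28 of 30 values below 0) and -0.25 for mitosis (27 of 28 below 0). Both lists had their highest value of the Foxl2 siRNA libraries at 54 h in replicate 2, the library with the most Foxl2 (57.5 CPM, against 33.7 and 25.2) and the highest level of 24 of the 26 lowered repair genes. The part of proliferation in the repair gene results was not tested.

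**Figure D4:**
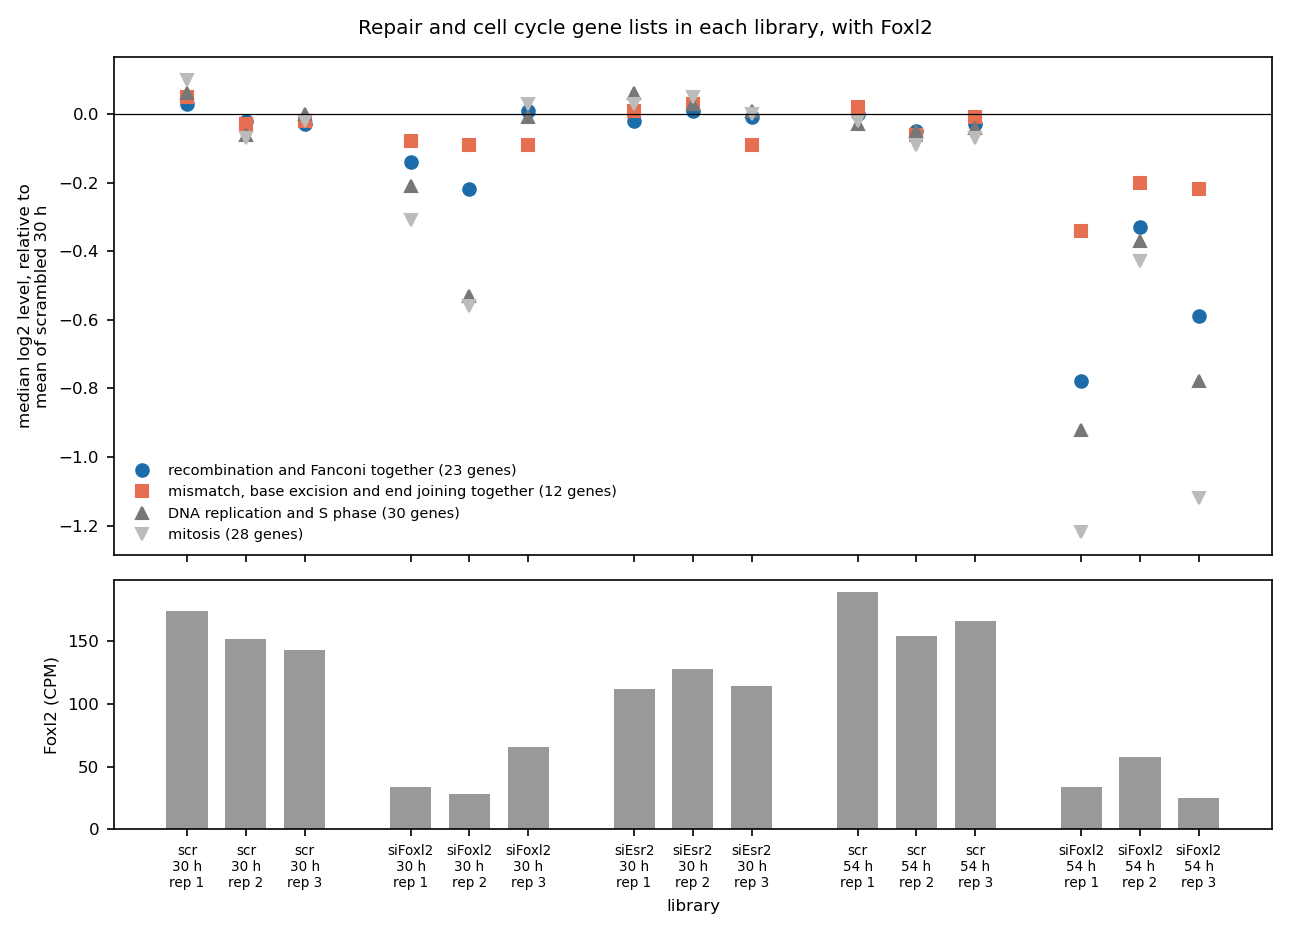
Upper panel: median log2 level over the genes of each list, relative to the mean of the scrambled 30 h libraries, in each of the 15 libraries; lower panel: Foxl2 CPM in the same libraries. The recombination and Fanconi genes (circles) fall to -0.78, -0.33 and -0.59 with Foxl2 siRNA at 54 h, between the mismatch, base excision and end joining genes (squares; -0.34, -0.20 and -0.22) and the S phase and mitosis genes (triangles).

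Repair genes outside the 43 were called lower more often than higher. Of 108 further genes listed, 102 were tested, and 39 were lower (38.2%) and 7 higher at 54 h (median log2 change -0.18). Of all genes tested 20.3% were lower and 18.5% higher. Other recombination genes had 15 of 25 lower and 3 higher, led by the nuclease gene Eme1 (-1.01 ± 0.15, edgeR adjusted p = 0.000191). Other checkpoint genes had 10 of 19 lower and 1 higher: Clspn, the adaptor of CHEK1 activation, changed by -1.04 ± 0.11 (edgeR adjusted p = 1.38e-05) and the kinase gene Wee1 by 0.45 ± 0.06 (edgeR adjusted p = 0.000199). Other base excision genes had 5 of 19 lower and 1 higher, with Fen1, the flap nuclease, at -0.85 ± 0.16 (edgeR adjusted p = 0.00137). Other Fanconi genes had 3 of 13 lower and 1 higher, and other end joining genes 2 of 7 lower, including Polq, the polymerase of the alternative pathway, at -0.66 ± 0.10 (edgeR adjusted p = 0.000339). Other mismatch genes had 2 of 5 lower (40%). Nucleotide excision repair, which removes bulky lesions, had 2 of 14 lower (14.3%) and 1 higher and a median of 0.02. The share lower was 60% in the other recombination and 52.6% in the other checkpoint genes. It was 28.6% in the other end joining, 26.3% in the other base excision and 23.1% in the other Fanconi genes, nearer the 20.3% of all genes tested.

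Promoter sequences were available for 34 of the 43 genes in a RefSeq table (GRCm38.p6; 250 bases before to 50 after the start of the transcript) and were searched on both strands for letters of sites bound by cell cycle regulators. The E2F letters TTTCCCGC, TTTCGCGC, TTTGGCGC or TTTGCCGC, none of which lies within another motif searched, were in 7 of the 34 (20.6%), against 2.6% of 27025 genes in the table, 4.46% of 11216 tested genes and 43.5% of 23 S phase genes. They were in 3 of 21 members that were lower at 54 h (14.3%) and in 4 of 13 that were not called (30.8%). No promoter was available for Exo1, Xrcc2, Fancd2, Rad54b and Rad50, which were lower at 54 h. The same held for Rad51d, Prkdc, Rbbp8 and Nbn, which were not called. Those shares thus leave out Exo1 and Xrcc2, which had the largest changes. The 8 matches are shown in 30-base windows on the strand of the gene, with the E2F letters in capitals, because they set members that fell beside members that did not. Bard1, Chek2 and both Rad51c promoters belong to genes that fell; Brca2, Fancg, Msh6 and Xrcc6 were not called.
Bard1, chr1:71103163-71103192, minus strand: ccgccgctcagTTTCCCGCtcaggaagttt
Chek2, chr5:110839820-110839849, plus strand: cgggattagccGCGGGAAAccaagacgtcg
Rad51c, chr11:87404477-87404506, minus strand: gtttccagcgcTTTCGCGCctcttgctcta
Rad51c, chr11:87404941-87404970, minus strand: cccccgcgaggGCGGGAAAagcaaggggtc
Brca2, chr5:150522442-150522471, plus strand: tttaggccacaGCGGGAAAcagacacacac
Fancg, chr4:43010335-43010364, minus strand: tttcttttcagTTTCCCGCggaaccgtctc
Msh6, chr17:87975054-87975083, plus strand: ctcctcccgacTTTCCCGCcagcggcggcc
Xrcc6, chr15:82016312-82016341, plus strand: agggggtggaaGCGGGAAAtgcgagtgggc
The Bard1 match begins 209 bases before the start, that of Chek2 152, Brca2 168, Fancg 52 and Xrcc6 46 bases before it. The Rad51c matches begin at base 12 of one transcript and 5 bases before the other, and the Msh6 match begins at base 16 of the transcript.

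The letters of the CHR element, TTTGAA, were in 1 of the 34 promoters (2.94%, Bard1), against 20.2% of all genes in the table, 14.2% of tested genes and 72.7% of 22 mitosis genes. CCAAT was in 21 of 34 (61.8%), against 41.1% of all genes and 42.8% of tested genes. It was in 13 of 19 recombination and Fanconi promoters and in 5 of 10 mismatch, base excision and end joining promoters. The forkhead letters TGTTTAC were in 1 of 34 (2.94%, Brca2), against 4.05% of all genes and 3.08% of tested genes. The 250 bases before the start are shown for 3 genes, with any of these letters on either strand in capitals: Brca2, which was not called and holds both E2F and forkhead letters, Rad51ap1, which fell and holds only CCAAT, and Neil3, which fell and holds none of them.
Brca2, chr5:150522371-150522620, plus strand: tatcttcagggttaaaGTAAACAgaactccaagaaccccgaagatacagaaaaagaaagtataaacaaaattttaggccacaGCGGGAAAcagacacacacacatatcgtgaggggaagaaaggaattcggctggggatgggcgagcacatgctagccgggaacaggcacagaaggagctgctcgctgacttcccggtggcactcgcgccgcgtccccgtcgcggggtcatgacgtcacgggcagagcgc
Rad51ap1, chr6:126939588-126939837, minus strand: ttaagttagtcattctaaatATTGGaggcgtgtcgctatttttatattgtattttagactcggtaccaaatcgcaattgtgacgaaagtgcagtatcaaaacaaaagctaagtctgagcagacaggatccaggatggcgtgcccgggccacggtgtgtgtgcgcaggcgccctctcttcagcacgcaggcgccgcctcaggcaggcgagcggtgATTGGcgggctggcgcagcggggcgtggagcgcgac
Neil3, chr8:53639066-53639315, minus strand: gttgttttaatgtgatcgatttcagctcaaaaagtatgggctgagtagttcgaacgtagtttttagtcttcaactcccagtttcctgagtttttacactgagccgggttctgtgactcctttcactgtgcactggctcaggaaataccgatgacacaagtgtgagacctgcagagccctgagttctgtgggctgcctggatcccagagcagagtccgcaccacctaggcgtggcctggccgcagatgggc
A match of letters is a description of the sequence and not of a bound factor.

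At 30 h Foxl2 siRNA lowered 4 of the 43 genes and raised none, against 6.65% of all genes tested that were lower (13% called in either direction). These were Ung, Fance, Exo1 and Xrcc1. Their calls depended on single libraries: leaving out replicate 1 or 2 of either group gave a count of 1. Omitting scrambled replicate 3 gave 0 and omitting Foxl2 siRNA replicate 3 gave 6. The number of calls among all genes, 1936 in the main fit, moved in the same direction. It lay between 1061 and 1171 where the count was 1, and was 898 where it was 0 and 3016 where it was 6. The shifts thus cannot be read as particular to these genes. The median log2 change over all members was -0.11, with 34 of 43 values below 0. For 12 genes all Foxl2 siRNA libraries lay below the scrambled ones, against 17.7% of all genes tested, and for 1 above (15.3%).

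Ung stood at 15.7, 16.8 and 17.8 CPM with scrambled siRNA at 30 h and at 10.8, 7.23 and 11.3 CPM with Foxl2 siRNA (log2 change -0.77 ± 0.17 SE, edgeR adjusted p = 0.0103), and at 16, 15.6 and 15.5 CPM with Esr2 siRNA. Its groups did not overlap with Foxl2 siRNA, and its change at 30 h was nearly as large as at 54 h (difference of the changes -0.11 ± 0.24, edgeR adjusted p = 0.94). Exo1 stood at 26.4, 23.7 and 24.2 CPM, at 19.2, 15.5 and 20.8 with Foxl2 siRNA (log2 change -0.42 ± 0.12 SE, edgeR adjusted p = 0.039) and at 25.5, 25.8 and 23 with Esr2 siRNA. Xrcc1 stood at 31.4, 28.8 and 30.9 CPM, at 25.9, 23.7 and 27.3 with Foxl2 siRNA (log2 change -0.25 ± 0.08 SE, edgeR adjusted p = 0.0495) and at 30.6, 30.6 and 30 with Esr2 siRNA. These 3 genes passed the test at both times, but at 30 h the Exo1 call ended with the replicate block (edgeR adjusted p = 0.0603) and without a filter (0.0522). The Xrcc1 call ended with the replicate block (edgeR adjusted p = 0.0726), with RLE (0.0529) and upper-quartile scaling (0.0764) and without a filter (0.0893). With only the groups compared both ended, whereas Ung kept its call under these settings. Fance (chr17:28313519-28326572, plus strand), which links the Fanconi core to FANCD2, stood at 12.5, 13.1 and 13 CPM, at 10.5, 9.56 and 10.7 with Foxl2 siRNA (log2 change -0.33 ± 0.08 SE, edgeR adjusted p = 0.0231) and at 12.6, 11.4 and 12.7 with Esr2 siRNA. At 54 h it stood at 11.4, 12.9 and 11.4 and 9.94, 11.5 and 11.3 CPM, with overlapping groups and no call (log2 change -0.12 ± 0.08, edgeR adjusted p = 0.292).

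The recombination and Fanconi genes with the smallest p at 54 h did not pass the test at 30 h, the time given here. They were chosen by their p at 54 h, which favours larger changes at that time. Their values thus cannot show a difference between the times. Brca1 stood at 54.3, 53 and 53.8 CPM with scrambled siRNA, 49.5, 47.5 and 48.9 with Foxl2 siRNA and 50.8, 52.1 and 51.3 with Esr2 siRNA. Rad54l stood at 19.5, 18.4 and 19.4, 16.5, 14.1 and 16.8 and 19.1, 19.8 and 20.2 CPM in the same order. Blm stood at 36.9, 31.8 and 32, 29.7, 28.8 and 32.2 and 36.5, 39.8 and 35.8 CPM. Brca1 and Rad54l lay below scrambled in all Foxl2 siRNA libraries without passing the test (edgeR adjusted p = 0.182 for Brca1), and Blm overlapped. Fancd2 stood at 21.8, 21.7 and 20.8, 19, 16 and 19.8 and 21.2, 20.4 and 22.1 CPM. Fanci stood at 15.4, 13.7 and 13.8, 13.6, 10.9 and 14.7 and 12.2, 14.3 and 14 CPM. Fanca stood at 24.1, 22.5 and 22.7, 17.8, 17.3 and 20.1 and 22.3, 25 and 24.3 CPM. Of these Fanconi genes Fancd2 and Fanca lay below scrambled in all 3 Foxl2 siRNA libraries, and none passed the test.

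Neil3 stood at 9.52, 9.92 and 9.24 CPM with scrambled siRNA, 7.26, 6.7 and 8.7 with Foxl2 siRNA and 10.7, 9.01 and 12 with Esr2 siRNA at 30 h. Parp1 stood at 265, 231 and 244, 220, 194 and 258 and 263, 287 and 271 CPM in the same order. Pms2 stood at 17.1, 16 and 15.1, 13.9, 14.9 and 15.3 and 13.2, 15.8 and 13 CPM. Neil3 alone of these 3 had Foxl2 siRNA libraries that all lay below the scrambled ones, and none was called. Chek1 stood at 24.2, 22.8 and 23.1, 19.5, 19.2 and 25.4 and 26.7, 26.1 and 24.7 CPM. Chek2 stood at 19.7, 17.9 and 17.5, 17.9, 14.9 and 17.8 and 17.2, 19.9 and 16 CPM. Rad50 stood at 49.7, 47.5 and 45.7, 45, 45.9 and 43 and 41, 46.3 and 42.2 CPM. Foxl2 siRNA replicate 3, which kept 65.4 CPM of Foxl2, was the highest of its group for Chek1, and Chek2 and Rad50 overlapped with scrambled. No end joining gene passed the test. Xrcc5 stood at 23.9, 21.6 and 21.7, 22.9, 21.3 and 23 and 22.6, 24.6 and 20.7 CPM. Xrcc6 stood at 44.6, 41.7 and 43.4, 44.8, 41.5 and 41.5 and 47.7, 47.4 and 43.5 CPM. Prkdc stood at 32.1, 34.9 and 30.9, 32.8, 36.9 and 27.3 and 28.2, 33 and 29.9 CPM. In all 3 the Foxl2 siRNA libraries overlapped with the scrambled ones, and the 95% interval of the log2 change of Xrcc6 was -0.15 to 0.11.

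Whether the Foxl2 siRNA effect differed between 54 h and 30 h was tested directly, and 0 of 43 members passed (0.00671% of all genes tested, 1 gene). At an unadjusted p under 0.05 there were 17 members and 1510 of the 14907 genes tested. With DESeq2 2 members passed, with 107 genes higher and 85 lower among all genes. With limma voom 18 members passed, 14 of them recombination and Fanconi genes, with 487 genes higher and 569 lower among all genes. By p, the members that came nearest were Exo1, with a difference of the log2 changes of -0.71 ± 0.17 (SE; edgeR adjusted p = 0.183), and Brca1, with -0.37 ± 0.10 (SE; edgeR adjusted p = 0.2). The median was -0.46 over the recombination and Fanconi genes, -0.13 over the mismatch, base excision and end joining genes and 0 over all genes. Without Foxl2 siRNA replicate 2 at 54 h 15 members passed, all with a larger fall at 54 h, and among all genes 325 passed as higher and 579 as lower. Of the 15 members 9 were recombination genes, 3 Fanconi genes, and the others were Exo1, Neil3 and Chek1. Among them were Fanca (-0.88, edgeR adjusted p = 0.00284) and Rad54l (-0.84, edgeR adjusted p = 0.00417). Leaving out any other single library gave 0.

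With Esr2 siRNA at 30 h 0 of 43 members were called, against 4.23% of all genes tested that were called, 1.13% higher and 3.11% lower. At an unadjusted p under 0.05 there were 6 members and 2625 of the 14907 genes tested. DESeq2 called 2 members, Lig3 and Nbn, with 401 genes higher and 697 lower among all genes. Limma voom called 13 members, with 2148 genes higher and 2583 lower among all genes. In the main fit the median log2 change of the members was -0.01. Nbn (chr4:15957925-15992589, plus strand) stood at 31.3, 28.2 and 28.7 CPM with scrambled siRNA and at 24.7, 26.3 and 23.2 with Esr2 siRNA (log2 change -0.25 ± 0.06 SE, edgeR adjusted p = 0.0503), and at 28, 27.8 and 30.6 with Foxl2 siRNA. Lig3 (chr11:82781108-82804274, plus strand) stood at 77.5, 76.9 and 79.3 CPM with scrambled siRNA, at 63.4, 71.8 and 66.4 with Esr2 siRNA (log2 change -0.21 ± 0.06 SE, edgeR adjusted p = 0.0539) and at 80.8, 75.9 and 73.4 with Foxl2 siRNA. Both lay below all scrambled libraries with Esr2 siRNA and missed the threshold narrowly; without Esr2 siRNA replicate 2 both passed, with Fancm as the third. Xrcc2 had the largest difference and little spread, with 22.5, 21.1 and 23 CPM with scrambled siRNA and 15.5, 15.1 and 15.1 with Esr2 siRNA. Its log2 change was -0.54 ± 0.21 (SE; edgeR adjusted p = 0.198) with the spread shared over all 15 libraries, and it passed when only these 6 libraries were fitted (edgeR adjusted p = 0.00368). With Foxl2 siRNA at 30 h it stood at 13.6, 12.3 and 20.1 CPM. For 6 members all Esr2 siRNA libraries lay below the scrambled ones (15.2% of all genes tested) and for 4 above (14.2%).

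Compared directly at 30 h, 5 members were lower and 2 higher with Foxl2 siRNA than with Esr2 siRNA, against 9.34% lower and 11.1% higher of all genes tested (20.4% called). The lower ones were Ung (log2 change -0.68 ± 0.17 SE, edgeR adjusted p = 0.0126), Exo1 (log2 change -0.42 ± 0.12 SE, edgeR adjusted p = 0.0277), Xrcc1, Fance and Rad51c, and the higher ones Nbn (log2 change 0.22 ± 0.06 SE, edgeR adjusted p = 0.0305) and Lig3 (log2 change 0.19 ± 0.06 SE, edgeR adjusted p = 0.0323). Rad51c stood at 4.94, 4.03 and 6.22 CPM with Foxl2 siRNA and at 7.3, 7 and 7.54 with Esr2 siRNA, around the scrambled values of 6.19, 4.94 and 6.24. The Ung call alone held when each library was left out in turn. The count was 2 without Foxl2 siRNA replicate 1 or 2, 1 without Esr2 siRNA replicate 1 and 2 without Esr2 siRNA replicate 3. Calls among all genes were also fewer in these fits than the 1649 higher and 1393 lower of the main fit. Higher and lower were 1222 and 996 without Foxl2 siRNA replicate 1, and 1243 and 948 without replicate 2. They were 974 and 793 without Esr2 siRNA replicate 1, and 1105 and 893 without replicate 3.

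No repair gene passed the test for time in culture with scrambled siRNA. Between 54 h and 30 h 0 of 43 members were called (0.00671% of all genes tested, 1 gene). At an unadjusted p under 0.05 there were 0 members and 727 of the 14907 genes tested. DESeq2 called 0 members, with 28 genes higher and 32 lower among all genes. Limma voom called 5 members, with 1400 genes higher and 1293 lower among all genes. For 4 members all libraries at 54 h lay below those at 30 h (11.2% of all genes tested) and for 5 above (11.5%). The smallest unadjusted p belonged to Nbn, with 31.3, 28.2 and 28.7 CPM at 30 h and 27.7, 26.8 and 27.5 at 54 h, and to Xrcc6, with 44.6, 41.7 and 43.4 and 42.8, 39 and 39.2 CPM (log2 change -0.10 ± 0.06 for each, edgeR adjusted p = 1). With Foxl2 siRNA at 54 h Nbn stood at 24.9, 26.5 and 24.9 CPM. The largest difference was 0.21 on the log2 scale, that of Parp1, with a 95% interval of -0.09 to 0.52.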

How the data were processed

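RNA from 15 granulosa cell libraries in 5 groups of 3 was analysed. The authors deposited raw read counts per gene for each library. Per the submitters' processing notes the tools were bcl2fastq 2.15.0, TopHat2 and DESeq2 with the mm10 build; for counting, the program, annotation and handling of strand were not given in the sources used here. The 92 spike-in rows were left out, and 15 gene names that a spreadsheet had turned into dates were restored in 1 library. Counts were fitted with edgeR 4.0.16 (R 4.3.3): TMM scaling, filterByExpr, a quasi-likelihood fit of 5 group means over all 15 libraries (10 residual degrees of freedom), two-sided tests and Benjamini-Hochberg adjustment over 14907 genes, with calls at an adjusted p under 0.05. SE is the log2 change divided by the root of F, and intervals are 95%. The same code was tested on simulated counts. No 2 libraries of a group agreed within sampling noise (chi-square per degree of freedom from 6.85 to 122). Gene positions and exon lengths are from GENCODE M21. Each member had at least 126 counts in every library.

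The members, pathway groups, other lists and motifs were chosen with earlier results of these data known. Values of all 15 libraries are given for the members with the 3 smallest p per pathway at 54 h (2 where a pathway has under 5), the 2 smallest p in each other comparison, and the highest level; Xrcc2, Brca2 and Rad51c were added after their values were seen. Genes that are no member were named as the siRNA targets, as markers without reads, or as genes with the 2 smallest p of their list. Some genes that this rule would name are not reported here.

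Replicate numbers were checked for pairing. The deviations of same-numbered scrambled libraries at 30 h and 54 h correlated at 0.63, 0.49 and 0.14, so this comparison was also fitted with the number as a block, which gave 0 members as well. Alternatives were other scalings, no filter, DESeq2 1.42.0, limma voom (limma 3.58.1) with quality weights, the replicate block, only the groups compared, each library left out, and other pathway borders.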

Additional observations from a re-analysis of the deposited data

How the results depend on the processing

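The count of lowered repair genes with Foxl2 siRNA at 54 h was 26 in the main analysis and lay between 21 (only the groups compared) and 28 (limma voom) under the other settings, and between 23 and 28 with each library left out. Among all genes, 2755 were higher and 3032 lower in the main analysis, and 2375 and 2171 with only the groups compared. With a library left out, 2113 to 3257 were higher and 2242 to 3495 lower. Of those 26 calls, 23 held in every fit with a library left out, and Pms2, Parp1 and Xrcc5 did not. With only the groups compared, Bard1 (edgeR adjusted p = 0.0562), Fanca (0.0591), Pms2 (0.0743), Parp1 (0.103) and Xrcc5 (0.0861) lost their calls. At 30 h the count of 4 for Foxl2 siRNA became 2 without a filter, 12 with limma voom and 1 with only the groups compared, and ranged from 0 to 6 with a library left out. Calls among all genes were 1936 in the main analysis, 1616 without a filter and 1440 with only the groups compared. They lay between 898 and 3016 with a library left out. For Esr2 siRNA the count of 0 became 2 with DESeq2, 13 with limma voom and 1 with only the groups compared (0 to 3 with a library left out). Of all genes, 168 were higher and 463 lower in the main analysis, 401 and 697 with DESeq2, and 451 and 680 with only the groups compared. The fit that gave 3 members called 279 genes higher and 751 lower. For time with scrambled siRNA it was 5 with limma voom and 0 with each library left out. For the difference between the Foxl2 siRNA effects at 54 h and 30 h it was 2 with DESeq2, 18 with limma voom and 0 to 15 with a library left out. The fit that gave 15 called 325 genes higher and 579 lower among all genes. Between Foxl2 and Esr2 siRNA the count of 7 became 2 without a filter, 16 with limma voom and 2 with only the groups compared (1 to 8). Here 1649 of all genes were higher and 1393 lower in the main analysis, and 1424 and 1215 without a filter. With only the groups compared 935 were higher and 690 lower. Limma voom also called more of all genes tested. Higher and lower were 2489 and 2763 at 30 h and 3655 and 4008 at 54 h with Foxl2 siRNA, and 2148 and 2583 with Esr2 siRNA. For time they were 1400 and 1293, for the difference between times 487 and 569, and between Foxl2 and Esr2 siRNA 2769 and 2677. The cause of the differences between settings was not tested.

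The median of the recombination and Fanconi genes minus that of the mismatch, base excision and end joining genes was -0.29 at 54 h and became -0.14 with Rbbp8, Mre11a, Rad50 and Nbn counted as recombination genes (-0.34 to -0.26 with a library left out). With Esr2 siRNA it was 0.04 and became -0.01 under the same change (0 to 0.05). Between Foxl2 and Esr2 siRNA it was -0.05 and became -0.12 with Exo1 counted as a recombination gene (-0.14 to -0.02). Counting Exo1 so also made the difference at 54 h larger in size. With a library left out, the difference of medians ranged from -0.11 to 0.04 at 30 h and from -0.03 to 0.01 for time. For the difference between times it ranged from -0.39 to -0.22. Upper-quartile scaling moved the share of higher calls among all called genes from 48.8% to 60.1% at 30 h with Foxl2 siRNA and from 26.6% to 38.7% with Esr2 siRNA.

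With the replicate number as a block, the counts of called members were 2 for Foxl2 siRNA at 30 h, 26 at 54 h and 4 between Foxl2 and Esr2 siRNA, and 0 for Esr2 siRNA and for the difference between times. Same-numbered libraries correlated in their deviations from the group means at 0.49, 0.44 and 0.07 between scrambled and Foxl2 siRNA at 30 h. They did so at 0.40, 0.02 and 0.14 at 54 h and at -0.14, -0.47 and 0.32 between scrambled and Esr2 siRNA. Between Foxl2 siRNA at 30 h and at 54 h the values were 0.66, -0.26 and -0.29. Not every pair exceeded 0.1, and the labels do not say what same-numbered libraries share. The block ended the calls of Exo1 (edgeR adjusted p = 0.0603) and Xrcc1 (0.0726) at 30 h. The summed theca and stroma level was lowest in replicate 1 and highest in replicate 2 in both scrambled groups (257, 867 and 624 CPM at 30 h, 330, 1040 and 697 at 54 h) and with Foxl2 siRNA at 30 h (302, 1040 and 646). The other groups had another order. Esr2 siRNA gave 519, 243 and 822 CPM, lowest in replicate 2, and Foxl2 siRNA at 54 h gave 411, 953 and 1340, highest in replicate 3. The smallest count of a member in a library was 126, so counting error weighs most on the least abundant members.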
